A study of Mus musculus with 9 samples.

Results

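The 10 genes described here mark astrocytes in the cortex, and they were taken by symbol from the deposited table, in which all 10 were found among 14444 genes. The members were Aqp4, Gfap, Slc1a2, Slc1a3, Aldh1l1, S100b, Gja1, Sox9, Aldoc and Glul. The study sequenced total RNA from mouse prefrontal cortex in 9 libraries, 3 in each of 3 groups, from animals of 5 to 8 postnatal weeks. One group was wild type and given saline, one was SHANK3 mutant and given saline, and one was SHANK3 mutant and given UNC0642. UNC0642 is an inhibitor of EHMT1 and EHMT2, enzymes that methylate histone H3, and was injected into the peritoneum at 1 mg/kg once a day for 3 days. The labels name the mutated gene without the allele, its zygosity or the cells it affects. Separate animals are not stated for replicate libraries, and the p-values reflect a spread that may be technical. Replicates are named here by group and number.

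Astrocytes are the glial cells that clear glutamate and potassium from around synapses, turn glutamate into glutamine for return to neurons, and join blood vessels through end-feet rich in water channels. They are coupled to one another by gap junctions, and in injury or disease they become reactive, with more of the intermediate filament protein GFAP. RNA of whole cortex mixes all cell types, so fewer astrocytes and less RNA per astrocyte cannot be told apart in these values. Several of the members are also made elsewhere: S100b and Glul in oligodendrocytes, and Slc1a3 and Sox9 in neural stem cells.

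The deposited values were not plain CPM, that is, reads scaled to a common total per library. Wild type together with UNC0642 replicates 2 and 3 had the same mean log2 value as the saline mutants together with UNC0642 replicate 1, for every gene and to within 2.5e-09. Differences between group means in the deposited values are partly fixed by that adjustment. Whole reads behind the values were recovered for 14444 of 14444 genes, with 100% of genes whole within 0.02 reads, and came to 12035098 to 16165483 reads per library. The recovered reads divided the libraries into a side with the wild type and UNC0642 replicate 3 (4 libraries) and a side with the saline mutants and UNC0642 replicates 1 and 2 (5 libraries). This division was the first principal component, with 52.1% of the variance. Genotype and division can therefore be told apart only through UNC0642 replicate 3, and the comparison of UNC0642 with saline was made within the saline side. Shank3 itself was at 301 to 348 recovered CPM in wild type, 324 to 350 in saline mutants and 294 to 317 under UNC0642, so its level over the whole gene did not separate the genotypes, and without the allele it is no check of the labels.

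The highest members were enzymes and transporters of glutamate and energy metabolism, and the lowest was the transcription factor. Levels between genes were compared as recovered CPM per kilobase of exon, for 13895 genes with an exon length in GENCODE M21. In wild type, Glul, the glutamine synthetase, stood at 553 ± 73.8 CPM per kb (SD, n = 3) and ranked 15 of 13895 genes. Slc1a2, the main glutamate transporter of cortical astrocytes, followed at 288 ± 39.2 CPM per kb, and Aldoc, the aldolase of brain glycolysis, at 277 ± 48.5. The order of Slc1a2 and Aldoc was not fixed, because Slc1a2 was the higher in only 3 of 9 libraries. Slc1a3, the second astrocytic glutamate transporter, was at 95.7 ± 19.2 CPM per kb, and S100b, a calcium-binding protein, at 70.3 ± 1.45. Next came 3 genes whose wild-type ranges overlapped from neighbour to neighbour. The water channel gene Aqp4 was at 26.0 ± 6.54 CPM per kb, the filament gene Gfap at 24.6 ± 8.65 and the gap junction gene Gja1, which encodes connexin 43, at 22.5 ± 2.82. Aldh1l1, a folate enzyme used as a pan-astrocyte marker, was at 15.7 ± 1.53, and Sox9, a transcription factor of astrocyte identity, at 6.86 ± 1.70 CPM per kb, rank 6158. Wild-type ranges of the other neighbours in this order did not overlap.

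The members held 0.561 to 0.965% of all recovered reads, with 246 to 66727 reads per member and library. Slc1a2 alone gave 40.4 to 48.6% of the members' reads. Exons of Glul overlap 116 bases of Teddm2 on the opposite strand, and Teddm2 had a median of 20 reads. Exons of Slc1a2 overlap 189 bases of an antisense RNA, and those of Aldh1l1 overlap 499 bases of another and 105 bases of a non-coding RNA on the same strand. The strand setting of the read counting is not given in the sources used here, so reads in those stretches cannot be assigned.

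**Figure D1:**
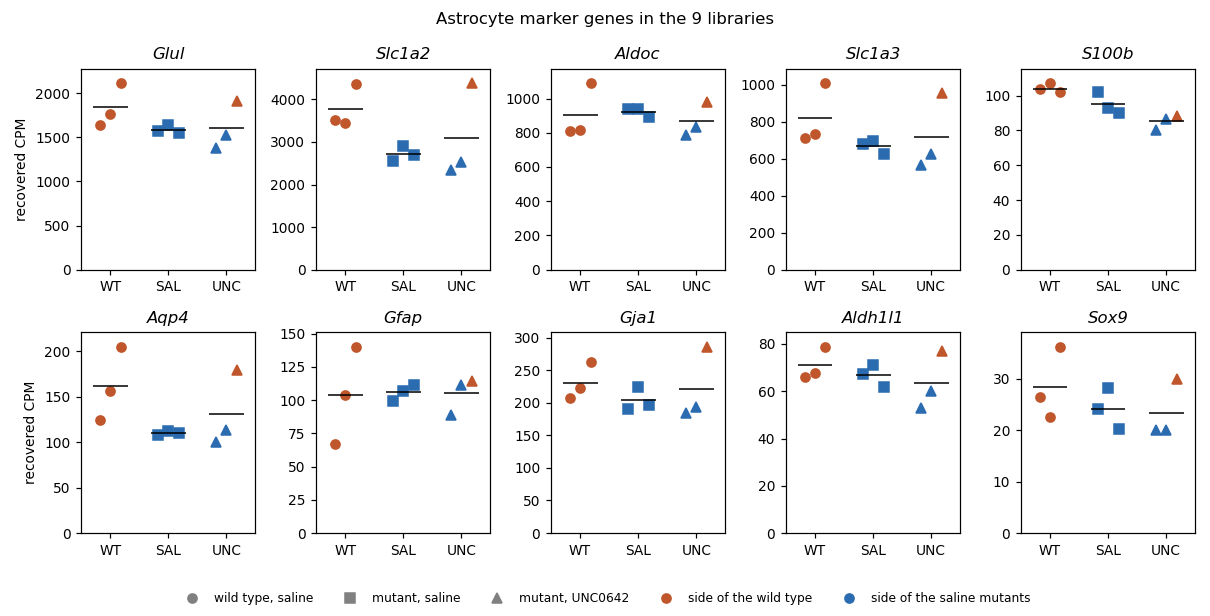
Recovered CPM (vertical axis, linear, from 0) of each member in the 9 libraries by group (horizontal axis), with symbols for the groups, colours for the side of the division and a line at each group mean. For 3 members, Aqp4, Slc1a2 and Slc1a3, every library of the saline side lies below wild type and UNC0642 replicate 3, which is at 4375 for Slc1a2. For the other members the sides overlap, and S100b is low in all 3 UNC0642 libraries, at 80.4 to 88.4.

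Stretches before the start of 4 members are shown because Slc1a3 and Glul varied most closely together across the libraries, whereas S100b and Gfap followed the other members least, as described further on. Each is the 250 bases before the annotated start from the RefSeq promoter table of GRCm38.p6, written 5′ to 3′ on the gene's strand, with matches to 3 motifs in capitals. The motifs were the NFI half-site TTGGC or its complement GCCAA, the STAT site TTCNNNGAA, and the SOX site ACAAT or its complement ATTGT, all named for factors known in astrocyte development. The Slc1a3 stretch lies at chr15:8710808-8711057 on the minus strand and holds 1 STAT and 1 SOX match. The Glul stretch lies at chr1:153899679-153899928 on the plus strand and holds 2 NFI matches. The S100b stretch lies at chr10:76253586-76253835 on the plus strand and holds 3 NFI matches, and the Gfap stretch at chr11:102897201-102897450 on the minus strand holds no match to any of the 3.
Slc1a3: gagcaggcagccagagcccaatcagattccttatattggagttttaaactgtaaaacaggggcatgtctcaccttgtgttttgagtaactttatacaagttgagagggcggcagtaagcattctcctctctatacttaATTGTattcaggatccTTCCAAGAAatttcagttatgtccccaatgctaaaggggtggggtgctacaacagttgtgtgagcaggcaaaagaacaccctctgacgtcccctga
Glul: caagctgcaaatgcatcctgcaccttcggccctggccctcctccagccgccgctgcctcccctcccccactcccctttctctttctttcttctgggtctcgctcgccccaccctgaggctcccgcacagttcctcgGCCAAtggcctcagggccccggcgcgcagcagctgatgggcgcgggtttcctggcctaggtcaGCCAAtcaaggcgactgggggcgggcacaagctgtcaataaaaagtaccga
S100b: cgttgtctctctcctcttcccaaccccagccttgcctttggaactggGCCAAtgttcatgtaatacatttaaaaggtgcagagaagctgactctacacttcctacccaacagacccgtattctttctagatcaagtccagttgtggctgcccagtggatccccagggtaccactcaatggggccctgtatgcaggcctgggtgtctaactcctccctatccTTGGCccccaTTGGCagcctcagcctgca
Gfap: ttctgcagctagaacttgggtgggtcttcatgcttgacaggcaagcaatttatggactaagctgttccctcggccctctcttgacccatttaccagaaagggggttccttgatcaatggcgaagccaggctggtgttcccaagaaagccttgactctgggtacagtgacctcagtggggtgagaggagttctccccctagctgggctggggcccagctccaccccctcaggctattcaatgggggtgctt
Over the members, 8 had a window in that table, in 9 windows. NFI half-sites stood in 4 of the 9 windows, against 41.5% of 32851 windows of all genes. STAT sites stood in 2, against 7.02%, and SOX sites in 2, against 27.7%. With 9 windows these shares are a description only, and a match is a run of letters, not a shown binding site. Bases outside the 250 were not searched, so a stretch without a match does not show that a gene lacks such sites.

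The 3 UNC0642 libraries did not move alike. Against the mean of the saline mutants, UNC0642 replicate 1 was lower for 10 of 10 members, with a median log2 difference of -0.23 in recovered CPM. UNC0642 replicate 2 was lower for 8 of 10, with a median of -0.10. UNC0642 replicate 3, set against the wild type of its own side, was lower for 1 of 10 members, and its median was 0.15. Against the other 2 of their group, the median over the members was -0.22, -0.08 and 0.37 for wild-type replicates 1 to 3, a spread wider than the value of UNC0642 replicate 3. It was -0.01, 0.08 and -0.08 for saline mutant replicates 1 to 3, so that UNC0642 replicate 1 lay outside the spread of its own reference group and UNC0642 replicate 2 slightly so. Over all genes these medians lay between 0.00 and 0.01. Summed over the members, recovered CPM was 7268 to 9400 in wild type, 6340 to 6825 in saline mutants, 5610 and 6100 in UNC0642 replicates 1 and 2, and 8994 in UNC0642 replicate 3.

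**Figure D2:**
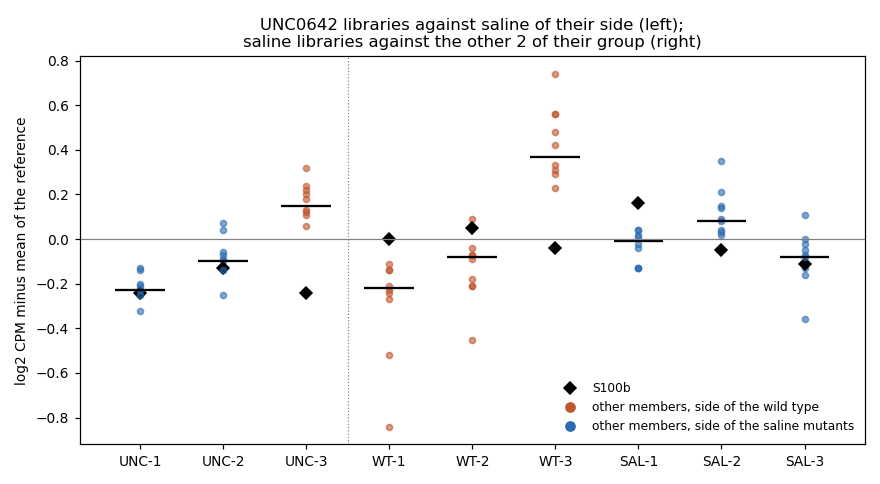
Log2 recovered CPM of each member minus the mean of a reference (vertical axis) for each library (horizontal axis), for UNC0642 libraries against the saline group of their side and for saline libraries against the other 2 of their group. Points are members, bars are medians over the 10 members and diamonds are S100b, which in UNC0642 replicate 3 stands at -0.24 while the other 9 members are above 0.

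Within the saline side, the 10 members had lower fitted levels under UNC0642 than under saline, but no difference passed the test. In limma-voom on the recovered reads of 2 UNC0642 and 3 saline mutant libraries, no more than 0% of 14444 genes, and 0 of 10 members, passed an adjusted p of 0.05. At an unadjusted p under 0.05 the fit had 851 of 14444 genes, among them 6 of 10 members. Most members vary together and rest on the same 2 UNC0642 libraries, so these are not 6 separate results. The log2 difference was negative for 10 of 10 members, with a median of -0.16, and for 48.8% of all genes, with a median of 0.00. In simulated reads for this design the same fit recovered 199 of the 200 genes given a log2 change of 1. Every simulated gene had the same spread beyond counting error. The members' differences were far smaller than that change, and the simulation does not show how often such differences would be called. Leaving out UNC0642 replicate 1 brought the median to -0.10 and leaving out replicate 2 brought it to -0.23.

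Among the glutamate and glutamine genes, Slc1a2 was at 2561, 2914 and 2695 recovered CPM in the saline mutants and at 2349, 2532 and 4375 in UNC0642 replicates 1 to 3. Slc1a2 was at 3511, 3448 and 4369 in wild type. UNC0642 replicates 1 and 2 thus lay below every saline mutant, and replicate 3 lay above every wild-type library by a narrow margin. The fitted log2 difference of Slc1a2 within the saline side was -0.16 (SE 0.05, adjusted p = 0.78, limma-voom). Slc1a3 was at 678, 695 and 626 in the saline mutants, 568, 624 and 953 under UNC0642 and 713, 732 and 1006 in wild type. UNC0642 replicate 2 was just under the lowest saline mutant, and the log2 difference was -0.16 (SE 0.06, adjusted p = 0.78, limma-voom). Glul was at 1569, 1643 and 1548 in the saline mutants, 1377, 1524 and 1912 under UNC0642 and 1636, 1769 and 2111 in wild type. Its log2 difference was -0.13 (SE 0.05, adjusted p = 0.79, limma-voom), and the 2 UNC0642 libraries of the saline side did not overlap the saline mutants.

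Of the metabolic enzymes, Aldoc was at 939, 937 and 892 recovered CPM in the saline mutants, 788, 835 and 978 under UNC0642 and 813, 815 and 1088 in wild type. It had the smallest p of the members, with a log2 difference of -0.18 (SE 0.05, adjusted p = 0.72, limma-voom), and ranked 37 of 14444 genes by p. Unlike the transporters, Aldoc had 2 wild-type libraries below every saline mutant. Aldh1l1 was at 67.4, 71.1 and 61.8 in the saline mutants, 53.1, 60.3 and 77.0 under UNC0642 and 66.1, 67.7 and 78.8 in wild type. The difference was -0.23 (SE 0.09, adjusted p = 0.79, limma-voom), with UNC0642 replicate 2 close to the lowest saline mutant.

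S100b was the only member that was low in every UNC0642 library on both sides of the division. It was at 104, 107 and 102 recovered CPM in wild type, 102, 92.9 and 90.2 in the saline mutants and 80.4, 86.7 and 88.4 under UNC0642. All 3 UNC0642 libraries lay below all 6 others, as they did for 0.408% of genes. The margin was narrow, at 88.4 in UNC0642 replicate 3 against 90.2 in saline mutant replicate 3, which lie on different sides. The group means were 104 ± 2.15, 95.2 ± 6.43 and 85.2 ± 4.22 (SD, n = 3 each). Within the saline side the log2 difference of S100b was -0.18 (SE 0.08, adjusted p = 0.8, limma-voom), and UNC0642 replicate 3 stood at -0.24 against the wild-type mean. UNC0642 replicate 3 was below every wild-type library for S100b alone among the members, and for 20.5% of genes. In the deposited values S100b was at 83.3 to 85.7 under UNC0642 and 93.4 to 106 in the saline mutants, a log2 difference of -0.22 (SE 0.07, adjusted p = 1, limma; unadjusted rank 27 of 14444). It was the 1 member with every deposited UNC0642 value below every saline mutant value, as for 3.06% of genes. The libraries are the same and the adjustment enters these values, so they are no second test of S100b. The margin between saline mutant replicate 3 and UNC0642 replicate 3 was wider in them, at 93.4 against 85.7. S100b was 1.15 times Aldh1l1 in recovered CPM in UNC0642 replicate 3, against 1.30 to 1.58 in the wild-type libraries. In UNC0642 replicates 1 and 2 that ratio was 1.51 and 1.44, within the 1.31 to 1.52 of the saline mutants. Because oligodendrocytes also make S100b, their 11 listed markers are given beside it: their summed recovered CPM was 3095 to 5030 in wild type, 1554 to 3580 in saline mutants and 2624, 5000 and 3763 in UNC0642 replicates 1 to 3. The part of oligodendrocytes in the S100b values was not tested.

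Aqp4, Gja1 and Gfap, the membrane and filament genes, were the members in which UNC0642 replicates 1 and 2 were not both below every saline mutant. Aqp4 was at 108, 112 and 110 recovered CPM in the saline mutants, 100, 113 and 180 under UNC0642 and 124, 156 and 205 in wild type. UNC0642 replicate 2 was above every saline mutant, so the groups overlapped, and the log2 difference was -0.04 (SE 0.07, adjusted p = 0.96, limma-voom). Gja1 was at 191, 224 and 196 in the saline mutants, 184, 193 and 286 under UNC0642 and 207, 222 and 263 in wild type, with a difference of -0.11 (SE 0.07, adjusted p = 0.89, limma-voom). Gfap varied most within wild type, at 67.3, 104 and 140, and was at 99.6, 107 and 111 in the saline mutants and 88.9, 111 and 114 under UNC0642. Its difference was -0.08 (SE 0.09, adjusted p = 0.93, limma-voom), and both Gfap and Aqp4 were above 0 without UNC0642 replicate 1, at 0.07 and 0.04. Sox9, with the fewest reads, was at 24.1, 28.2 and 20.3 in the saline mutants, 20.1, 20.1 and 30.0 under UNC0642 and 26.5, 22.5 and 36.2 in wild type. Its difference was -0.26 (SE 0.14, adjusted p = 0.86, limma-voom), and UNC0642 replicates 1 and 2 were just under the lowest saline mutant.

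Counted by libraries, 7 of 10 members had UNC0642 replicates 1 and 2 below every saline mutant, namely Slc1a2, Slc1a3, Aldh1l1, S100b, Sox9, Aldoc and Glul, as did 11.5% of all genes. Leaving out 1 library at a time gave 7 to 10 members, while the share of all genes was larger with fewer libraries. Without UNC0642 replicate 1 the count was 7, against 24.6% of genes, and without UNC0642 replicate 2 it was 10, against 25.2%. When UNC0642 replicate 3 was also required to lie below every wild-type library, 1 member, S100b, remained, as did 1.93% of genes. UNC0642 replicate 3 was above every wild-type library for 2 members, Slc1a2 and Gja1, and for 21.2% of genes.

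**Figure D3:**
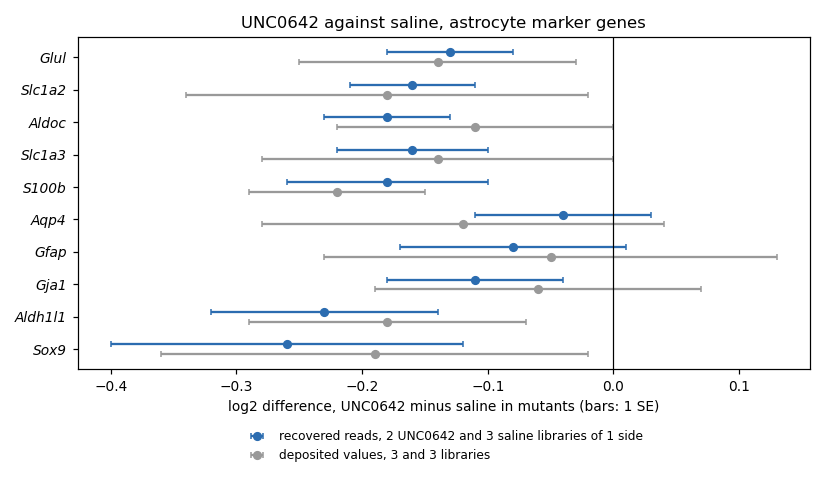
Log2 difference between UNC0642 and saline mutants (horizontal axis) for each member (vertical axis), as points with bars of 1 standard error, from recovered reads of the saline side and from the deposited values of all libraries. The 10 members lie below 0 in both, with medians of -0.16 and -0.14, and none passed the test. The deposited values carry the adjustment, in which UNC0642 replicate 2 was set with the wild type.

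The deposited values, with 3 libraries on each arm, gave 10 of 10 members below 0 for UNC0642 against saline mutants, with a median of -0.14, against 49% of genes and a median of 0.00. In limma 0 of 14444 genes were called, which is 0%, and 281 were at an unadjusted p under 0.05, 1 of them a member. These values share the saline libraries and UNC0642 replicates 1 and 2 with the fit on recovered reads. They also carry the adjustment, so they are no second test. UNC0642 replicate 2 lies on the saline side but was adjusted with the wild type. Its Slc1a2 was 2174 in deposited values, against 3000 to 3401 in saline mutants, and 2532 in recovered CPM, against 2561 to 2914. Without that library the deposited fit had 7 of 10 members below 0 and a median of -0.07. Aqp4 was then at 0.04, Slc1a2 at 0.01 and Gja1 at 0.06. With limma-voom on the recovered reads of all 9 libraries and no term for the division, 5 of 10 members were below 0. The median was then -0.01, since UNC0642 replicate 3 counts in full against the saline side.

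Between saline mutants and wild type the members' deposited differences lay on both sides of 0. In limma 0 of 14444 genes were called, which is 0%, and 19 were at an unadjusted p under 0.05, with no member among them. The log2 difference was negative for 4 of 10 members, and the median was 0.02, against 0.00 over all genes. Gfap had the largest value, at 0.14 (SE 0.18, adjusted p = 1, limma). No member had every saline mutant value above every wild-type value, as 1.73% of genes did, or below, as 1.7% did. The adjustment sets equal means for sets that hold these groups, so the values bear little on the genotype.

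In the recovered reads, 3 members were lower in every saline mutant than in every wild-type library: Aqp4, Slc1a2 and Slc1a3, as were 20.2% of all genes. UNC0642 replicates 1 and 2 shared these low values and UNC0642 replicate 3 the high ones, a pattern that the same 3 members shared with 14% of genes. With limma-voom and no term for the division, 12.4% of genes were called and 0 of 10 members, with a median of -0.19 over the members. Aqp4 was at -0.53 (SE 0.19, adjusted p = 0.078, limma-voom) and Slc1a2 at -0.47 (SE 0.18, adjusted p = 0.093, limma-voom). With the division as a term, 0% of genes were called, 9 of 10 members were above 0 and the median was 0.33, so the direction turned. That estimate rests on UNC0642 replicate 3, and whether genotype or division goes with the low values cannot be told apart here.

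Between UNC0642 mutants and wild type no member passed the test in the deposited values. In limma 0 of 14444 genes were called, which is 0%, and 1238 were at an unadjusted p under 0.05. The difference was negative for 9 of 10 members, with Gfap the exception at 0.08 (SE 0.18, adjusted p = 0.89, limma), and the median was -0.13. S100b had the smallest p, at -0.26 (SE 0.07, adjusted p = 0.58, limma), and its UNC0642 libraries lay below every wild-type library, as for 5.84% of genes. With limma-voom on the recovered reads 0.0692% of genes were called and 0 members. With the division as a term 0.0346% of genes were called and 0 members, and 9 of 10 members were then above 0. That estimate is UNC0642 replicate 3 alone against wild type, with a median of 0.15. The wild-type libraries themselves ran from -0.22 to 0.37 against the other 2 of their group.

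Most members varied together from library to library, and S100b and Gfap less so. Pearson's r and Spearman's rho of log2 deposited values over the 9 libraries were computed for 45 pairs. Exact two-sided permutation p-values were adjusted over the 45. As an alternative, r was computed without the 2 libraries farthest from the median of the gene named first in the pair. The libraries left out can therefore differ between pairs. The permutations exchanged all 9 libraries freely, so the p-values make no allowance for group, side or adjustment. The median r was 0.80, with a range of -0.12 to 0.96, and 29 pairs had an adjusted p under 0.05 by r and 26 by rho. Slc1a3 and Glul were closest, with r = 0.96 (exact permutation p = 6.9e-05, adjusted 0.0022) and rho = 1.00 (exact permutation p = 5.5e-06, adjusted 0.00025), and r was 0.90 without the 2 libraries farthest from the median. The transporters Slc1a2 and Slc1a3 had r = 0.93 (exact permutation p = 0.00017, adjusted 0.0022), rho = 0.92 (exact permutation p = 0.0013, adjusted 0.0059) and r = 0.89 without the 2 farthest libraries. S100b had a median r of 0.27 with the other members, and its r with Gfap was -0.12 (exact permutation p = 0.78, adjusted 0.8), with rho = -0.22 (exact permutation p = 0.58, adjusted 0.64).

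The libraries share an adjustment and a division, and each side holds fewer than 6 libraries, so no r is given within a side. As residuals from the mean of each side, the recovered log2 CPM gave a median r of 0.79 over the 45 pairs, 0.88 for Glul with the others and -0.03 for S100b. Gfap followed the other members more closely on that measure, with a median r of 0.73 in place of 0.54, and reached 0.98 with Aqp4. Deposited values gave Aqp4 and Gfap r = 0.65 (exact permutation p = 0.061, adjusted 0.091) and rho = 0.62 (exact permutation p = 0.086, adjusted 0.12), and 0.91 without the 2 farthest libraries. All values of one library share its depth and its mix of cells, and genes are not independent replicates.

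**Figure D4:**
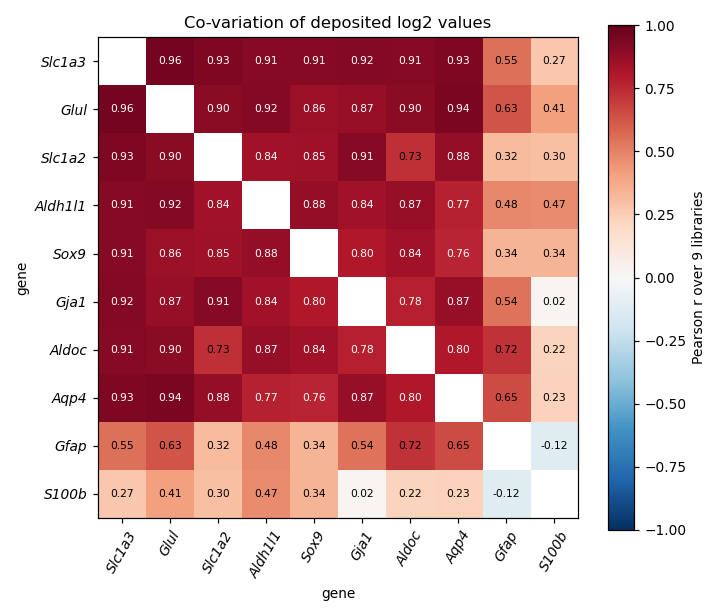
Pearson's r of log2 deposited values over 9 libraries for the 45 pairs of members, with genes on both axes and r as colour and number. Slc1a3 and Glul stand at 0.96, while the S100b row runs from -0.12 to 0.47.

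The genes most like the members in this pattern were named by r with the mean standardised log2 deposited value of the members over 9 libraries. Among the 5 highest outside the members were Sft2d2, Itih5, Kcnn3 and Serpine2, each at r = 0.99. Kcnn3 encodes a calcium-activated potassium channel and Serpine2 a secreted protease inhibitor. In residuals of recovered reads from each side's mean, Serpine2 was at 0.94 and Sft2d2, Itih5 and Kcnn3 at 0.99. For the members, r is raised because the mean includes the gene itself, and it is not comparable with r of outside genes. Glul was at 0.99, Slc1a3 at 0.98, Gfap at 0.61 and S100b at 0.37. Over all 14434 genes outside the members the median r was -0.01, and 762 exceeded 0.8. The median was 0.87 for 34 other astrocyte genes, of which 20 exceeded 0.8 and the lowest was at 0.15. It was 0.85 for 11 microglia markers, with a range of -0.12 to 0.97, 0.74 for 8 radial glia and stem cell markers and 0.71 for 10 oligodendrocyte precursor markers. It was 0.04 for 11 mature oligodendrocyte markers. The 13 neuron markers had a median of -0.81 and ran from -0.90 to 0.82, with 2 above 0.8. The part of the cell mix in the members' values was not tested.

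Other astrocyte genes leaned the same way under UNC0642. Of 34 listed genes, 31 had a negative log2 difference in the fit of the saline side and 0 passed the test, with a median of -0.14. Among the 4 of smallest p were Fgfr3, a fibroblast growth factor receptor, at -0.30 (SE 0.08), Apoe, the lipid carrier, at -0.19 (SE 0.05), and the GABA transporter Slc6a11 at -0.23 (SE 0.08). Their adjusted p-values in limma-voom were 0.72 for Fgfr3 and Apoe and 0.78 for Slc6a11. The list's summed recovered CPM was 7526 to 9958 in wild type, 7901 to 8729 in saline mutants, 7132 and 7797 in UNC0642 replicates 1 and 2 and 9147 in replicate 3.

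Genes of reactive astrocytes were about evenly divided. Of 31 listed, 23 were measured, of which 12 were below 0 and 0 passed the test, with a median of -0.01. Vim, an intermediate filament gene like Gfap, was at -0.18 (SE 0.10, adjusted p = 0.86, limma-voom) and the glucocorticoid-induced Fkbp5 at -0.23 (SE 0.13, adjusted p = 0.86, limma-voom). The interferon-related Gbp2 was at 0.52 (SE 0.32, adjusted p = 0.88, limma-voom) and the class I gene H2-T23 at 1.63 (SE 0.57, adjusted p = 0.78, limma-voom). Lcn2, Timp1, C3, Steap4, Cd109, Ptx3, Slc10a6 and Clcf1 had no row in the table used here.

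The remaining genes of the glutamate and glutamine cycle were mixed, with 13 of 18 below 0, 0 called and a median of -0.05. The neuronal enzyme Gad2, which makes GABA, was at -0.22 (SE 0.07) and Gls2, a glutaminase, at 0.29 (SE 0.11). The glutamine exporter Slc38a3 of astrocytes was at -0.19 (SE 0.08), and their adjusted p in limma-voom was 0.78 for Gad2 and Gls2 and 0.82 for Slc38a3. Of the end-foot and volume-regulation genes 7 of 12 measured were below 0 and 0 called, with a median of -0.06: Mlc1 was at -0.18 (SE 0.07), the potassium channel Kcnj10 at -0.15 (SE 0.07), and Dmd, which encodes dystrophin, at 0.18 (SE 0.07). Of 18 measured paralogs of the members 9 were below 0 and 0 called, with a median of -0.01.

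Markers of other cells moved in the same 5 libraries as follows. None was called by limma-voom. Negative differences were seen for 9 of 11 microglia markers (median -0.11), 8 of 10 oligodendrocyte precursor markers (-0.13), 8 of 11 meningeal fibroblast markers (-0.26), 8 of 14 endothelial and mural markers (-0.01), 5 of 13 neuron markers (0.01) and 0 of 11 mature oligodendrocyte markers (0.53). Of radial glia and stem cell markers 4 of 8 were negative (-0.02), and of ependymal and choroid plexus markers 2 of 3 measured (-0.27), while 5 more, Ttr among them, had no row. The neuron markers were not uniformly flat. Camk2a was at -0.26 (SE 0.05, adjusted p = 0.37, limma-voom), a smaller p than that of any member, while 8 of the 13 were above 0, such as Nefm at 0.13 (SE 0.09, adjusted p = 0.89, limma-voom). Summed recovered CPM of the meningeal list was 106 to 174 in wild type, 157 to 187 in saline mutants, 118 and 172 in UNC0642 replicates 1 and 2 and 271 in replicate 3. That of the microglia list was 544 to 598 in saline mutants and 530 and 537 in UNC0642 replicates 1 and 2, and that of the neuron list was 13625 to 14040 against 13184 and 13318. The part of these cells in the members' differences was not tested.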

How the data were processed

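The members and gene lists were chosen with earlier results of these data known. Total RNA was extracted with Trizol, depleted of ribosomal RNA and made into stranded libraries, per the labels' protocols. The submitters' processing notes name cutadapt, TopHat2, HTSeq and the mm9 build, without versions. For each gene and library the authors deposited a signal above 0 that they call CPM. Library sums were 975390 to 1028773, and the matrix matched 9 of 9 single-library files.

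Recovery searched 255 divisions into 2 sets and took the single one with equal set means (the next best differed by 0.87), then solved each gene for the shift at which 9 values are whole after removing a mean prior of 3.0 reads. A value of 0 reads was 0.2187, and rebuilt log2 values differed from the deposited ones by at most 3.3e-06. Recovered CPM used median-of-ratios factors. limma 3.58.1 (R 4.3.3) with a trend was fitted on log2(value + 0.5), and limma-voom on recovered reads, over 14444 genes with no filter and Benjamini-Hochberg adjustment. A value's log2 difference understates the change of low genes. Both fits and the recovery were tested on simulated data. Named genes were the 10 members, the 4 of smallest p in each list described and the 5 most like the members' mean, of which 2 are not reported here; Mrgpra6 and Lrrc17 were used to check the sides. Alternatives were pseudocounts, a filter, rescaling, a replicate block, 2 groups only, recovered reads with and without the division as a term, and leaving out each library. The count of members below every saline library was also made without each of the 5 libraries, an alternative added after seeing the data. Exon lengths come from GENCODE M21 (GRCm38), another build than mm9; sequences are RefSeq's. Replicate numbers did not pair the libraries. Other software was scipy 1.17.1, numpy 2.4.6, pandas 2.3.3 and matplotlib 3.10.9 in Python 3.11.15.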

Additional observations from a re-analysis of the deposited data

How the results depend on the processing

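No member was called under any alternative run. For UNC0642 against saline in deposited values, some settings could not move the fitted differences. These were leaving out a wild-type library, fitting only the 2 groups and the replicate block, so their 10 of 10 members below 0 are no check. Pseudocounts, the filter and rescaling also gave 10 of 10. Leaving out 1 library of the compared groups gave 7 to 10 members and medians of -0.26 to -0.07. limma-voom on recovered reads without the division gave 5 members below 0, with Aqp4 at 0.21, Slc1a2 0.12, Slc1a3 0.07, Gja1 0.09 and Glul 0.00. Leaving out a library turned Aqp4 (-0.29 to 0.04), Gfap (-0.11 to 0.05), Slc1a2 (-0.38 to 0.01) and Gja1 (-0.22 to 0.06).

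Within the saline side, leaving out a library gave 0 to 2 genes called, 8 to 10 members below 0, medians of -0.23 to -0.10, Aqp4 at -0.13 to 0.04 and Gfap at -0.25 to 0.07. With the replicate block 42 genes were called in place of 0. Same-numbered libraries had correlations of -0.19 to 0.31, so the numbers do not pair them.

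For saline mutants against wild type, genes called were 5 with only the 2 groups and 1797 with limma-voom. Members below 0 were 8 with limma-voom, 1 with the division as a term and 1 to 9 without 1 library, against 4. limma-voom gave Slc1a3 -0.28, Aldh1l1 -0.08, Gja1 -0.17 and Glul -0.21. The division term gave a median of 0.33, with Aqp4 0.22, Slc1a2 0.38 and Sox9 0.37. Leaving out a library gave Aqp4 -0.20 to 0.16, Gfap -0.14 to 0.38, Slc1a2 -0.08 to 0.09, Slc1a3 -0.06 to 0.19, Gja1 -0.02 to 0.15, Sox9 -0.16 to 0.18, Aldoc -0.01 to 0.20 and Glul -0.07 to 0.12.

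For UNC0642 mutants against wild type, genes called were 10 with limma-voom, 5 with the division term and 0 to 4 without 1 library. The division term left 1 member below 0 and a median of 0.15, with Aqp4 0.18, Slc1a2 0.22, Slc1a3 0.24, Aldh1l1 0.12, Gja1 0.32, Sox9 0.11, Aldoc 0.13 and Glul 0.06. These are the differences of UNC0642 replicate 3 alone from wild type. Without 1 library, members below 0 were 5 to 10, with Aqp4 at -0.33 to 0.03, Gfap -0.19 to 0.33, Slc1a3 -0.28 to 0.05, Gja1 -0.17 to 0.11 and Aldoc -0.13 to 0.09. The cause of these changes was not tested.

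The members had at least 246 reads in each library, and intervals for counting error were not computed. With 2 UNC0642 libraries on the saline side, the library, its cell mix and the treatment cannot be told apart.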
